A study of Mus musculus with 12 samples.

Results

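The spleen of the 4 mice fed the control diet was described by 2 rankings of its genes, one by mean signal and one by the standard deviation (SD) over the 4 mice. Every gene with a usable probe was ranked, 19057 genes in all, and the 200 highest of each ranking (1.05% of the genes) were read for the cell types and functions they stand for. Of the 200 brightest genes 107 were on one of 40 lists of cell types and functions, among them genes of protein synthesis, the respiratory chain, the actin cytoskeleton, antigen presentation, haemoglobin and iron storage. Of the 200 most variable 81 were on one of these lists and 119 were not. The largest counts among those on a list were those of developing red cells, with 24 of 50 listed genes among the 200, of dividing cells, with 17 of 36, and of neutrophil granules, with 10 of 28. Most of the 200 were high in replicates 3 and 4 and low in replicates 1 and 2. In smaller groups the list mean was furthest out in 1 mouse. It was high for digestive enzymes of the pancreas in replicate 2 and for heat shock genes in replicate 3. For glucocorticoid and metallothionein genes it was low in replicate 4.

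The mice were male C57Bl/6J animals that arrived at 6 weeks of age, were acclimatized for 3 weeks, and then ate a low-fat control diet on an AIN93m base, with corn oil and coconut oil as its fat, for 8 weeks. The other 8 of the 12 mice of the series ate a high-fat diet with corn oil (HFD-CO, 4 mice) or with eicosapentaenoic and docosahexaenoic acid (HFD-ED, 4 mice), and only their within-diet spread was used. All mice shared strain, sex, animal facility and feeding time, and the labels name no genetic change. The mice on the arrays had been picked from larger groups by body weight and plasma lipids, so the spread is that of selected animals, housed several to a cage. RNA from snap-frozen spleen went onto 1 array per mouse, so a change in the number of cells of a type and a change in RNA per cell cannot be told apart. The replicate numbers below come from the sample titles. The RNA extraction text of the labels names skeletal muscle, whereas the titles and the tissue label name spleen.

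The spleen has 2 compartments. Its red pulp filters blood, and there macrophages take up aged red cells and return their iron to the circulation. Its white pulp holds B cell follicles and T cell zones built on a stromal network that secretes chemokines. In adult mice the red pulp also remains a site of blood formation, with nests of erythroblasts, megakaryocytes and granulocyte precursors.

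Levels are the deposited normalized log2 signals, and a doubling is close to 1 unit for bright probes and less than 1 unit for dim ones. The median gene had a level of 7.21, near the floor of the arrays, and 6991 genes had a mean of at least 7.5. The tissue label was checked first. Of 17 skeletal muscle genes 3 reached a mean of 7.5, the highest being Tnni2, a fast troponin, at 8.04, and their median level was 7.14. Cd79b of the B cell receptor stood at 12.87, the T cell co-receptor gene Cd8b1 at 11.77, and the red pulp macrophage regulator Spic at 11.22. Of the sex-linked genes, the Y-linked Eif2s3y stood at 9.61, Kdm5d at 7.81 and Uty at 7.26, and Xist, which is expressed from an inactive X, at 7.11. Over all probes the 4 arrays correlated with each other at Pearson r of 0.990 to 0.995, across probes that are not independent replicates. The closest pairs were replicates 3 and 4 and replicates 1 and 2.

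The promoters of 4 genes are shown before the values, since several genes of each list they come from were among the most variable. They run from 250 bases before to 50 bases after the transcription start in RefSeq on GRCm38.p6, 5′ to 3′ on the gene's strand. Trim10 and Kel were the most variable erythroid genes with the GATA motif AGATAA or TGATAA, on either strand, in this window. Hspa1a was the most variable heat shock gene with GAANNTTC, the pair of inverted repeats that heat shock factors bind, which reads alike on both strands. Prc1 was the most variable cell cycle gene with TTTGAA, the core of the cell cycle homology region. Capitals mark the motif or its reverse complement.

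Trim10, chr17:36869324-36869623, plus strand: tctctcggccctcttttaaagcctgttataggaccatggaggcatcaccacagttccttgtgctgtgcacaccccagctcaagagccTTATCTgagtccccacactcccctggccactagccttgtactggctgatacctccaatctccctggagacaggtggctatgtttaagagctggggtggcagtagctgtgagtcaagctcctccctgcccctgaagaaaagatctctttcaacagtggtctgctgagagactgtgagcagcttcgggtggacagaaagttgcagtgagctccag
Kel, chr6:41704276-41704575, minus strand: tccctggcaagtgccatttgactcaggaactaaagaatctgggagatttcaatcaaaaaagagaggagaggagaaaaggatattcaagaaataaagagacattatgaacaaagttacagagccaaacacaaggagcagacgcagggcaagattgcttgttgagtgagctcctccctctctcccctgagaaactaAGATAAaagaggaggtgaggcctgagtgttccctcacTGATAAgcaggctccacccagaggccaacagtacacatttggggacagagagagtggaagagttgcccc
Hspa1a, chr17:34972107-34972406, minus strand: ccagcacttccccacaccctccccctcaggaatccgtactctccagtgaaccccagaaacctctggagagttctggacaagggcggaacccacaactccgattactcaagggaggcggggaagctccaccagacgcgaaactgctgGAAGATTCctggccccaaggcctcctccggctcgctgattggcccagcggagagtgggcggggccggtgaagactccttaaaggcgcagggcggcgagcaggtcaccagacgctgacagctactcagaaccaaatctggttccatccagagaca
Prc1, chr7:80294201-80294500, plus strand: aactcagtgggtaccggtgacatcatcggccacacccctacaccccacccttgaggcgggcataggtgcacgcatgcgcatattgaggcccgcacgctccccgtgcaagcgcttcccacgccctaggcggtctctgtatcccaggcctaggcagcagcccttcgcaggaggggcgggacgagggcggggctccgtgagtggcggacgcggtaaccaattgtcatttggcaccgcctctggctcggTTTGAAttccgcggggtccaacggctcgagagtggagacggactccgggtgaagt

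A window was at hand for 15237 of the ranked genes. The GATA motif lay in 18 of 35 erythroid genes with a window (51.4%), against 17.2% of all genes with one. GAANNTTC lay in 9 of 14 heat shock genes (64.3%), against 7.86%, and TTTGAA in 15 of 30 cell cycle genes (50%), against 17.3%. The CCAAT box, another element of cell cycle promoters, lay in 24 of those 30 (80%), against 42.1%. Over all 171 most variable genes with a window the GATA motif was found in 19.3%, TTTGAA in 24%, GAANNTTC in 13.5% and the CCAAT box in 56.1%. The lists were written by hand from known biology, but with earlier results of these data known. A match is a stretch of letters and not a bound site.

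**Figure D1:**
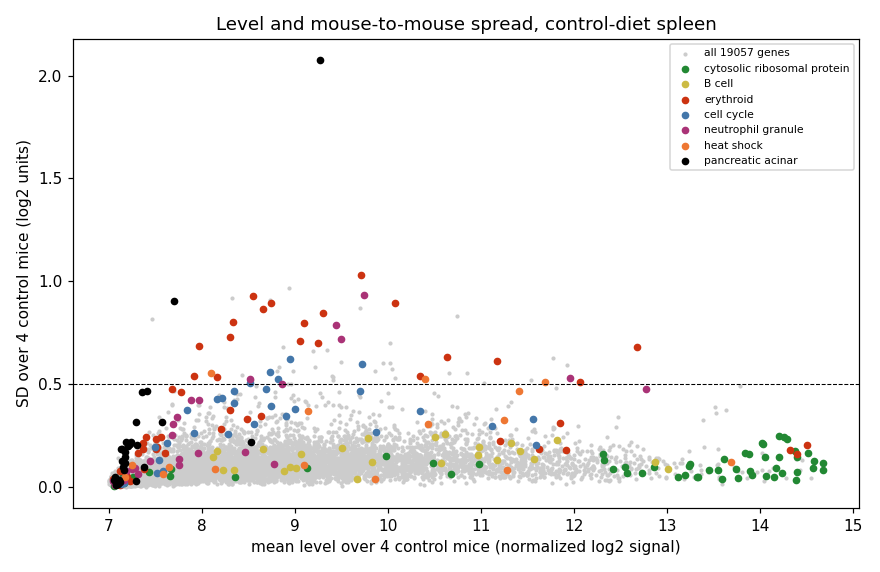
Mean level (normalized log2 signal) against SD over the 4 control mice for all 19057 genes (grey), with 7 gene lists in colour and an SD of 0.5 as a dashed line. Erythroid and cell cycle genes lie high at middle levels, ribosomal protein genes lie low at the right, and the highest point is Amy2a5, with an SD of 2.07.

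The brightest genes of the control spleen were led by the ribosome. Of 61 cytosolic ribosomal protein genes measured, 43 were among the 200 brightest, a set that holds 1.05% of all genes, and 16 were among the 25 brightest. Rps2, a protein of the small subunit, had the highest mean, with levels of 14.53, 14.74, 14.79 and 14.67 in replicates 1 to 4. Rplp1, of the stalk of the large subunit, had levels of 14.45, 14.65, 14.54 and 14.63. Both stayed within narrow bands, with SDs of 0.11 and 0.092 (0.062 and 0.057 without replicate 1), and neither ordered the mice as the other did. The median level of the list was 13.33 and its median SD 0.083. Of 21 translation factors 10 were among the brightest, led by Eef1a1, which carries aminoacyl-tRNA to the ribosome, at 14.47, 14.43, 14.33 and 14.52 (SD 0.082, 0.047 without replicate 3).

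The order within this group carries little. The highest value was the same 14.79 on every array by construction of the quantile normalization, and whether beads near the top were saturated was not assessed. In all 24 adjacent pairs of the 25 brightest genes the means were closer than the larger of their SDs. Signal also depends on the probe, so the ranks are ranks of signal and not of transcript number.

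**Figure D2:**
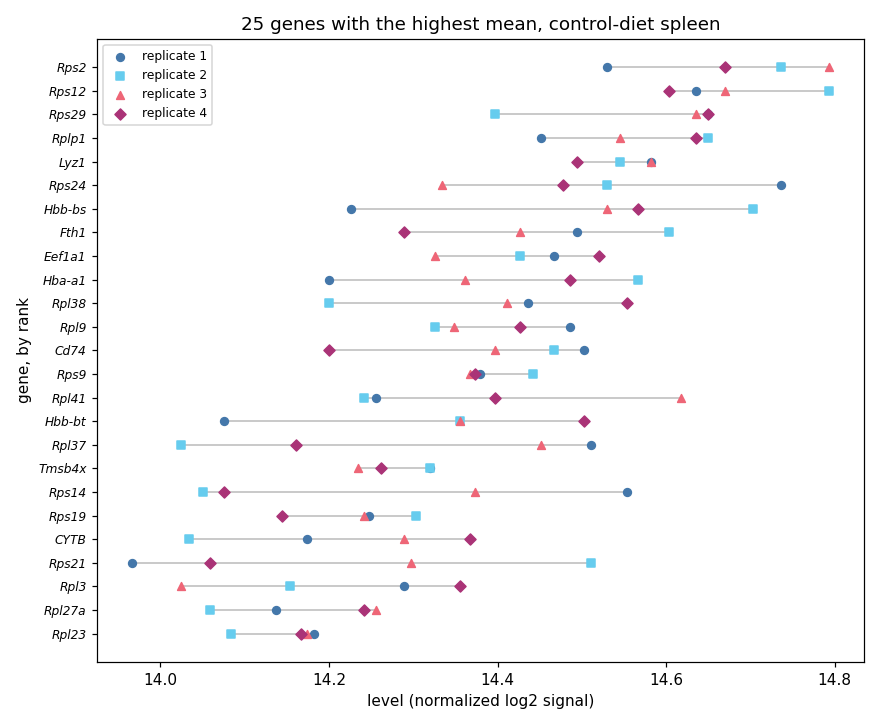
Levels (normalized log2 signal) of the 25 genes with the highest mean, 1 point per control mouse and a grey line over their range. All values lie between 13.97 (Rps21 in replicate 1) and 14.79 (Rps2 in replicate 3), and the ranges of neighbouring genes overlap.

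Haemoglobin genes stood beside them. The adult beta globin gene Hbb-bs had levels of 14.23, 14.70, 14.53 and 14.57, the alpha globin gene Hba-a1 14.20, 14.57, 14.36 and 14.49, and Hbb-bt, the second adult beta globin, 14.08, 14.35, 14.35 and 14.50. Replicate 1 was lowest in all 3, and their SDs were 0.20, 0.16 and 0.18. Without that mouse the SDs were 0.091, 0.10 and 0.085. The globin genes are near-identical copies, so a probe may read more than 1 of them. Slc4a1, the anion exchanger of the red cell membrane, was the only other erythroid gene of 50 among the brightest, with a mean of 12.67. Iron storage stood beside haemoglobin: Fth1, the ferritin heavy chain, had levels of 14.49, 14.60, 14.43 and 14.29, and Ftl1, the light chain, had a mean of 13.31 ± 0.051 (SD, n = 4, and 0.019 without replicate 1).

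Antigen presentation genes, used by B cells, dendritic cells and macrophages, were bright as well. Of 10 MHC class II genes 4 were among the 200 brightest. Cd74, the invariant chain that guides class II molecules to the peptide-loading compartment, had levels of 14.50, 14.47, 14.40 and 14.20. H2-Ab1, a class II beta chain, had levels of 13.83, 13.76, 13.65 and 13.64. Both were highest in replicate 1 and lowest in replicate 4, and the list as a whole was highest in replicate 1, by a mean of 0.15 over the 4-mouse mean. H2-Eb1 and H2-Aa followed with means of 13.44 and 13.16. B2m, the light chain of MHC class I, had a mean of 14.02 ± 0.16 (SD, n = 4, and 0.084 without replicate 3), and H2-D1, a class I heavy chain, 12.91 ± 0.13.

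Macrophage genes among the brightest were 3 of 19 of the red pulp and marginal zone list and 2 of 20 of the general monocyte and macrophage list, Lyz2 and Fcer1g, the gamma chain of Fc receptors. Slc40a1, or ferroportin, the only known cellular iron exporter, had levels of 13.37, 13.48, 13.36 and 13.27, with no mouse apart from the rest. Vcam1, an adhesion molecule of these macrophages and of stroma, had a mean of 12.81 ± 0.14 (0.085 without replicate 3), and Axl, a receptor for the uptake of dying cells, 12.52 ± 0.10 (SD, n = 4). Spic, which specifies red pulp macrophages, had levels of 11.28, 11.12, 11.26 and 11.20 and ranked below the 200. Lysozyme was read by 2 genes: Lyz1, the fifth brightest of all, at 14.58, 14.54, 14.58 and 14.49, and Lyz2 at 13.03, 13.06, 13.17 and 13.11. These paralogs share most of their sequence, and Lyz2 is the form of macrophages, so the Lyz1 signal may include it.

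Some lymphocyte genes were bright, but they were fewer. Over all genes 6991 of 19057 had a mean of at least 7.5, the share to set beside the counts that follow. Of 26 B cell genes 25 had a mean of at least 7.5 and 2 were among the 200 brightest: Fcmr, the Fc receptor for IgM, at 13.08, 13.09, 12.91 and 12.98, and Cd79b at 12.99, 12.93, 12.73 and 12.83. Replicates 3 and 4 were a little below replicates 1 and 2 in both. Of 28 T cell genes 19 reached 7.5 and none was among the 200 brightest. Cd8b1 had the highest mean of them, at 11.77, 11.75, 11.80 and 11.76, followed by Cd27, a co-stimulatory receptor, at 10.83, and Cd3d, of the T cell receptor complex, at 10.63. Of 26 natural killer and cytotoxic genes 12 reached 7.5, led by the chemokine Ccl5 at 11.88 and perforin, Prf1, at 11.49. From the plasma cell list 7 of 15 genes reached 7.5, with a median level of 7.48, and 2 were among the brightest. These were Mzb1, a chaperone of immunoglobulin assembly, at 12.10, 12.41, 12.52 and 12.80, and Xbp1, the secretory regulator, at 12.15, 12.49, 12.64 and 12.42. Both were lowest in replicate 1, and Mzb1 was also highest in replicate 4.

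Of 25 genes of fibroblasts and reticular stroma 3 were among the brightest. Mfge8, which is secreted by follicular dendritic cells and tags dying cells for uptake, had levels of 13.73, 13.82, 13.68 and 13.85. Bgn, a matrix proteoglycan, had a mean of 12.33 ± 0.074, and Ccl21a, a chemokine of the T cell zone whose copies near-identical probes cannot separate, 12.29 ± 0.080 (SD, n = 4). Of 18 endothelial and sinus lining genes none was among the 200 brightest, and Plvap, of the diaphragms of fenestrated endothelium, was the highest at 10.99. Megakaryocyte and platelet genes were also outside the 200, with Ppbp at 10.70 and Pf4 at 10.26, both platelet chemokines. Of the actin genes 8 of 16 were among the brightest, led by the actin-sequestering peptide gene Tmsb4x at 14.32, 14.32, 14.23 and 14.26 (SD 0.043), and of the respiratory chain genes 14 of 93, led by the mitochondrially encoded CYTB at 14.17, 14.03, 14.29 and 14.37.

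The spread between mice was small for most genes. The median SD was 0.0391 and the 99th percentile 0.328 log2 units. It rose with level from a median of 0.025 for genes under 7.1 to 0.13 for genes between 10 and 11, and was 0.094 above 13. Only 3 of the 200 most variable genes had a mean under 7.5, whereas 63.3% of all genes did, and among the 6991 genes above that level the most variable made up 2.82%. In 66 genes (0.346%) the SD reached 0.5, and without replicate 4 that count was 37. An SD from 4 mice is itself uncertain: for normally distributed values its 95% interval runs from 0.566 to 3.73 times the estimate, and a ranking by SD selects high estimates.

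Some bright genes hardly differed between the mice. Among genes with a mean of at least 10, the lowest SDs, named after the values were seen, were those of Akirin1, a nuclear factor of innate immune transcription, at 10.39, 10.38, 10.37 and 10.40 (SD 0.011), and Hmgn1, a nucleosome-binding protein, at 11.92, 11.93, 11.90 and 11.91 (SD 0.013). Cd8b1 had an SD of 0.020, Cd40, the co-stimulatory receptor of B cells, 0.021, and Laptm5, a lysosomal protein of blood cells, 0.028. Of the reference genes, Ppia had an SD of 0.074 at a mean of 13.97, Ywhaz of 0.13 at 12.44, Hprt of 0.085 at 11.40, Gusb of 0.073 at 10.42 and Tbp of 0.031 at 7.96. Leaving out 1 mouse gave 0.043 for Hprt and 0.014 for Tbp (both without replicate 4) and 0.040 for Gusb (without replicate 2). No gene of the B cell, T cell, natural killer, MHC class II, ribosomal protein or megakaryocyte lists was among the 200 most variable. Those 200 hold 1.05% of all genes, so at that share a list of this size would have few or none. Several other lists had none either, such as those of dendritic cells, smooth muscle and the respiratory chain.

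**Figure D3:**
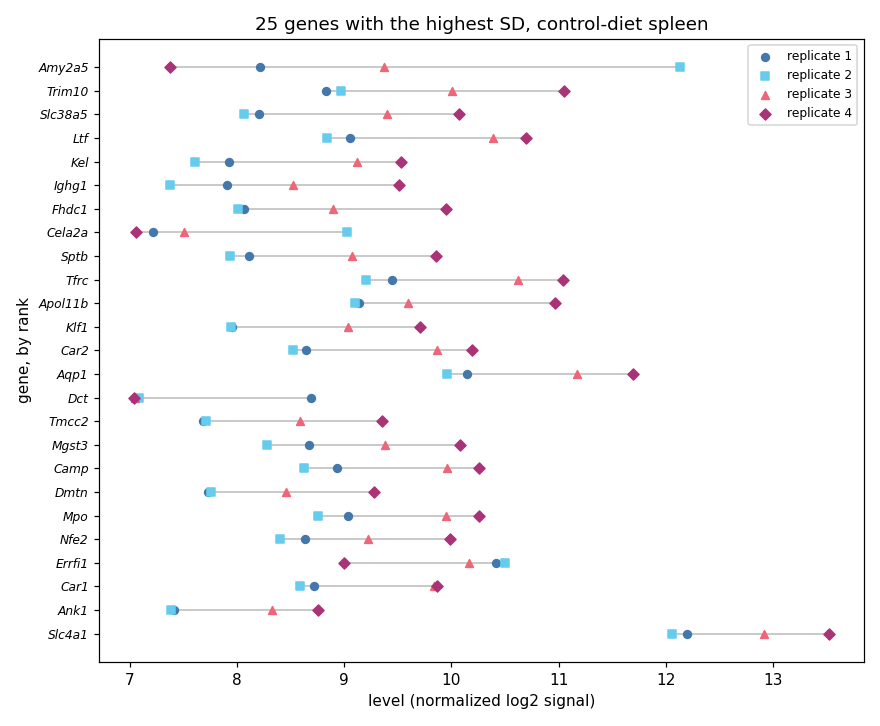
Levels (normalized log2 signal) of the 25 genes with the highest SD over the 4 control mice, 1 point per mouse and a grey line over their range. Replicates 3 and 4 lie to the right in most red cell and neutrophil genes, replicate 2 in Amy2a5 and Cela2a, replicate 1 alone in Dct, and replicate 4 lies to the left in Errfi1.

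Genes of the red cell lineage outnumbered those of every other list among the most variable. Of 50 erythroid genes 24 (48%) were among the 200, against 1.05% of all genes, and 19 of the 66 genes with an SD of at least 0.5 were erythroid. Because the lists were chosen with earlier results of these data known, this share and those of the other lists are not independent of the data. Trim10, a protein of terminal erythroid differentiation, had levels of 8.83, 8.97, 10.005 and 11.05 (SD 1.03). Kel, the Kell blood group protein, had levels of 7.92, 7.60, 9.12 and 9.53 (SD 0.93). Klf1, the master transcription factor of the lineage, had levels of 7.96, 7.94, 9.04 and 9.71 (SD 0.87). In each of them replicates 3 and 4 were well above replicates 1 and 2, with replicate 4 highest, and the 2 pairs did not overlap. The SD of Trim10 was 0.64 without replicate 4.

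The variable erythroid genes covered the parts of a maturing red cell. The membrane skeleton was represented by Sptb, beta spectrin, at 8.11, 7.93, 9.07 and 9.86 (SD 0.89, and 0.18 when its 5 probes were averaged), by Ank1, ankyrin, with an SD of 0.68, and by Dmtn, dematin, with an SD of 0.73 that was 0.41 without replicate 4. Slc4a1 had levels of 12.20, 12.06, 12.92 and 13.52 (SD 0.68), and was 1 of 8 genes found in both rankings. Tfrc, the transferrin receptor through which erythroblasts take up iron, had levels of 9.44, 9.20, 10.62 and 11.04 (SD 0.89). Again the lower pair was replicates 1 and 2. Haem synthesis varied in Alad, at 10.17, 10.06, 10.91 and 11.40, and Urod, at 10.78, 10.57, 11.44 and 11.90, and more weakly in Uros and Ppox, with SDs of 0.37 and 0.33. The carbonic anhydrase genes Car1 and Car2 had SDs of 0.70 and 0.85, and the transcription factor genes Nfe2 and Tal1 had SDs of 0.71 (0.42 without replicate 4) and 0.54. Tmcc2 had an SD of 0.80, 0.51 without replicate 4, and Mgst3, a glutathione transferase, of 0.79.

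Some genes of the erythroid list varied less. The globin genes Hba-a1, Hbb-bt and Hbb-bs had SDs of 0.16 to 0.20 near the top of the scale, and Alas2, the erythroid enzyme that starts haem synthesis, had levels of 12.04, 11.83, 11.70 and 12.08 (SD 0.18). Blvrb, biliverdin reductase B, had an SD of 0.31, and Bnip3l, which drives the removal of mitochondria, of 0.18, which was 0.032 without replicate 3, where it was low. Over the whole list replicate 4 was the highest mouse in 43 of 50 genes, against 24.2% of all genes. Replicates 3 and 4 were both above 1 and 2 in 38, against 18.0% of all genes. The list mean lay -0.28, -0.33, 0.14 and 0.46 from the 4-mouse mean in replicates 1 to 4, a range of 0.7889 that was 0.4678 without replicate 4.

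Other genes with the same pattern stood high in the ranking without being on the list, and were named by their rank. Slc38a5, a transporter of glutamine and other amino acids, had levels of 8.20, 8.06, 9.40 and 10.07 (SD 0.97), Fhdc1, a formin, 8.07, 8.01, 8.89 and 9.95 (SD 0.91, 0.49 without replicate 4), and Aqp1, the water channel of red cells and vessels, 10.15, 9.95, 11.18 and 11.70 (SD 0.83). Apol11b, an apolipoprotein L family gene, had levels of 9.14, 9.10, 9.60 and 10.96 and differed in that replicate 4 alone was far out: its SD of 0.87 was 0.28 without that mouse.

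Genes of dividing cells followed the same mice. Of 36 cell cycle genes 17 (47.2%) were among the 200 most variable, and the median SD of the list was 0.30, against 0.0391 for all genes. Birc5, survivin, a subunit of the chromosomal passenger complex, had levels of 8.42, 8.39, 9.45 and 9.51 (SD 0.62). Prc1, which bundles microtubules of the central spindle, had levels of 9.20, 9.23, 10.05 and 10.39 (SD 0.60). Cdc20, an activator of the anaphase-promoting complex, had levels of 8.17, 8.37, 9.01 and 9.37 (SD 0.56). Replicates 3 and 4 were above replicates 1 and 2 in all 3, with the same holding for 31 of the 36 genes, against 18.0% of all genes. Replicate 4 was highest in 28 of the 36, against 24.2% of all genes. Replication genes varied as well, Mcm5 with an SD of 0.37, Tk1 with 0.47 and the ribonucleotide reductase subunit Rrm2 with 0.37. The list mean lay -0.27, -0.19, 0.17 and 0.29 from the 4-mouse mean in replicates 1 to 4, in the direction of the erythroid list in every mouse. Whether the same cells carried both was not tested.

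Replication-dependent histone genes, a group picked after the values were seen, supplied 10 of the 200 from 59 measured. All 10 were H2A genes, such as H2ac12 at 11.19, 11.30, 12.18 and 12.43 (SD 0.62) and H2ac24 at 13.52, 13.28, 13.98 and 14.38 (SD 0.49). Replicates 3 and 4 were the upper pair in both. These genes are near-identical copies, so their probes may read the same transcripts, and 6 of them were also among the 200 brightest.

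Genes of neutrophil granules were the next group, with 10 of 28 (35.7%) among the most variable. Ltf, lactoferrin of the secondary granules, had levels of 9.05, 8.84, 10.39 and 10.69 (SD 0.93). Mpo, myeloperoxidase of the primary granules, had levels of 9.03, 8.75, 9.95 and 10.25 (SD 0.72). Camp, the cathelicidin precursor, had levels of 8.93, 8.62, 9.96 and 10.26 (SD 0.79). Replicates 3 and 4 were again the upper pair, here close to each other, and replicate 2 was the lowest. S100a8 and S100a9, the subunits of calprotectin, had levels of 12.65, 12.16, 13.22 and 13.08 and 11.91, 11.23, 12.31 and 12.39 in replicates 1 to 4. In these 2 genes replicate 1 lay nearer the upper pair, and the SD of S100a9 of 0.53 was 0.26 without replicate 2. Lcn2 had an SD of 0.52, Ngp of 0.42 and Chil3 of 0.50, where Chil3 has a close paralog in Chil4. Over the list replicate 2 was the highest mouse in none of the 28 genes, against 24.2% of all genes. Replicates 3 and 4 were both above the others in 18, against 18.0% of all genes. The list mean ranged over 0.4721 between the mice, and over 0.3136 without replicate 2. Prg2, major basic protein of eosinophils, had levels of 9.02, 9.18, 9.68 and 10.03 (SD 0.46).

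**Figure D4:**
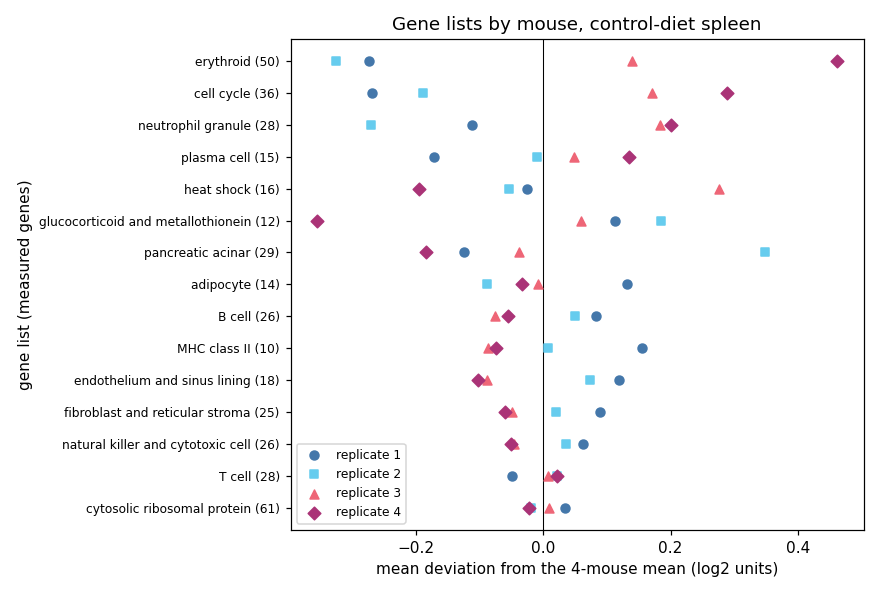
Mean deviation of the genes of 15 lists from their 4-mouse mean (log2 units), 1 point per control mouse. Replicate 4 is highest for erythroid (0.46), cell cycle and neutrophil granule genes and lowest for glucocorticoid and metallothionein genes (-0.36), replicate 3 is highest for heat shock genes and replicate 2 for pancreatic acinar genes.

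Antibody secretion varied in a few genes. Ighg1, the constant region of IgG1 and the only immunoglobulin heavy or light chain gene matched by symbol, had levels of 7.90, 7.37, 8.52 and 9.51 (SD 0.92, 0.58 without replicate 4). Replicate 4 was highest and replicate 2 near the floor. Of 15 plasma cell genes 2 were among the most variable, against 1.05% of all genes. Both were of the endoplasmic reticulum: Creld2 at 9.22, 9.90, 10.48 and 10.50 (SD 0.60) and Fkbp11 at 7.75, 8.32, 8.33 and 8.67 (SD 0.38). Unlike Ighg1, these 2 were lowest in replicate 1, and had SDs of 0.34 and 0.20 without that mouse. Other genes of protein folding and secretion in the 200, named after the values were seen, were lowest in replicate 1 too: Txndc5 at 10.64, 11.24, 11.16 and 11.41, Pdia4 at 9.41, 9.90, 10.16 and 10.14 and Prdx4 at 10.50, 10.93, 11.06 and 11.29. Replicate 4 was the highest mouse in 10 of the 15 plasma cell genes, against 24.2% of all genes. Of the 15, 7 had a mean of at least 7.5 and the rest a lower one.

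Heat shock genes were highest in replicate 3. Of 16 measured, 6 were among the 200 most variable, against 1.05% of all genes, and 1 was when the ranking left out replicate 3. Hspa1a, the inducible Hsp70, had levels of 8.05, 7.94, 8.86 and 7.53 (SD 0.56, 0.28 without replicate 3). Stip1, which links Hsp70 and Hsp90, had levels of 9.96, 10.36, 11.15 and 10.14 (SD 0.52, 0.20 without replicate 3). Hsph1, of the Hsp110 family, had levels of 11.66, 11.50, 12.40 and 11.20 (SD 0.51, 0.23 without replicate 3). Replicate 3 was highest in all 3, and replicate 4 lowest in Hspa1a and Hsph1. Chordc1, an Hsp90 co-chaperone, had levels of 11.69, 11.39, 11.79 and 10.75, with replicate 4 set low instead. Replicate 3 was the highest mouse in 12 of the 16 genes, against 23.01% of all genes. Hspa8, the constitutive Hsc70, was among the 200 brightest and had an SD of 0.12, and the mitochondrial chaperonins Hspd1 and Hspe1 had SDs of 0.082 (0.047 without replicate 3) and 0.040 (0.013 without replicate 4). Hspa1a has a near-identical copy, Hspa1b, that its probe may also read.

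Glucocorticoid-responsive genes were lowest in replicate 4. Of 12 genes of the glucocorticoid and metallothionein list 4 were among the most variable, against 1.05% of all genes. When the ranking left out replicate 4, 1 was. Tsc22d3, or GILZ, a direct target of the glucocorticoid receptor, had levels of 11.71, 11.88, 11.79 and 10.76 (SD 0.52, 0.085 without replicate 4). Errfi1, a feedback inhibitor of epidermal growth factor receptor signalling, had levels of 10.42, 10.50, 10.17 and 8.997 (SD 0.70, 0.18 without replicate 4). Ddit4, an inhibitor of mTORC1, had levels of 9.73, 9.59, 9.70 and 8.61 (SD 0.53, 0.075 without replicate 4). Pdk4, of fuel switching, and Dusp1, a phosphatase of MAP kinases, were low in the same mouse, at 8.10, 8.15, 8.05 and 7.45 and 10.60, 10.58, 10.56 and 9.84. Replicates 1 to 3 lay close together in each of these genes. Fkbp5, another receptor target, had levels of 8.13, 8.70, 8.09 and 8.06, high in replicate 2 alone (SD 0.30, 0.035 without it), and the metallothionein gene Mt1 of 11.01, 10.98, 11.13 and 11.12 (SD 0.074). The circadian output gene Dbp had levels of 9.94, 10.04, 9.26 and 9.53 (SD 0.36), with replicates 3 and 4 below 1 and 2, and Per1, of the clock itself, had levels of 8.51, 8.58, 8.52 and 8.13, low in replicate 4 alone (SD 0.21, 0.036 without it). The hour at which each mouse was killed was not given in the sources used here.

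Genes of tissues outside the spleen accounted for some of the highest SDs. Amy2a5, pancreatic amylase, had the highest SD of all genes, 2.07, from levels of 8.22, 12.14, 9.37 and 7.38. The SD was 0.999 without replicate 2, and 0.90 over the 4 mice when its 3 probes were averaged. Cela2a, pancreatic elastase, had levels of 7.21, 9.03, 7.51 and 7.06 (SD 0.90, 0.23 without replicate 2). Pnliprp1 and Clps, of lipid digestion, had levels of 7.13, 8.08, 7.35 and 7.06 and 7.12, 8.05, 7.21 and 7.07. Replicate 2 was the highest mouse in 25 of 29 pancreatic acinar genes, against 24.2% of all genes. The 4 named were the list's members among the most variable, a set that holds 1.05% of all genes. When the ranking left out that mouse, 1 member of the list was among them. The median level of the list was 7.18, at the floor, and none of 7 islet genes reached a mean of 7.5. Amylase genes are near-identical copies that 1 probe may read together. The tail of the pancreas lies against the splenic hilum, and how much pancreatic tissue each sample held was not tested. Adipoq, the adipocyte hormone adiponectin, was highest in replicate 1, at 8.33, 7.20, 7.63 and 7.64 (SD 0.47, 0.25 without replicate 1).

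Dct, a melanin synthesis enzyme, was seen in 1 mouse. Its levels were 8.69, 7.09, 7.05 and 7.04, its SD 0.82, and 0.026 without replicate 1. A second probe of Dct gave 7.87, 7.06, 7.11 and 7.04, also highest in replicate 1. Of 5 other pigment cell genes, a list written after the values were seen, none reached a mean of 7.5, and Tyrp1, another enzyme of the pathway, had levels of 7.31, 7.004, 7.05 and 7.03.

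Further single genes moved apart from these groups. Rsad2, or viperin, an interferon-induced antiviral gene, had levels of 10.77, 10.63, 10.97 and 11.77 (SD 0.51, 0.17 without replicate 4), and Isg15 7.999, 8.09, 8.56 and 8.97 (SD 0.45, 0.30 without replicate 4). Both were highest in replicate 4, while Ifi27l2a, the brightest gene of the type I interferon list, had an SD of 0.035. Of the 29 genes of that list 3 were among the most variable, against 1.05% of all genes. Fcgr4, an activating IgG Fc receptor of monocytes and macrophages, was high in replicate 3 alone, at 10.21, 10.42, 11.46 and 10.55 (SD 0.55, 0.17 without it). Hmox1, the haem-degrading enzyme of red pulp macrophages, was split differently, at 8.97, 9.79, 8.90 and 9.93 (SD 0.54), with replicates 2 and 4 high. Cxcl9, an interferon-gamma-induced chemokine, was lowest in replicate 1, at 10.21, 11.14, 10.74 and 10.87 (SD 0.39, 0.21 without it). Ppp4r3a, a regulatory subunit of protein phosphatase 4, was high in replicate 2 alone, at 9.03, 10.07, 8.80 and 8.95 (SD 0.58, 0.12 without it).

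Counted over the 200 most variable genes, replicate 4 was the highest mouse in 127, replicate 3 in 30, replicate 1 in 23 and replicate 2 in 20. Over all genes each of the 4 was highest in 23.01% to 28.6%. The lowest mouse was replicate 2 in 81, replicate 1 in 71, replicate 4 in 34 and replicate 3 in 14. Replicates 3 and 4 were both above replicates 1 and 2 in 142 of the 200, against 18.0% of all genes, and both below in 29, against 21.1%. These shares describe how the 200 genes, which are not independent of each other, were ordered. Which mice shared a cage and which arrays shared a BeadChip were not given in the sources used here, so a shared cage or chip and these pairs of mice cannot be told apart.

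Of the 200, 29 genes ran the other way, with replicates 3 and 4 low. Ramp2, a receptor subunit for adrenomedullin in endothelium, had levels of 10.46, 10.27, 9.65 and 9.78 (SD 0.39), and Ccn2, a matricellular growth factor, 11.70, 11.46, 11.40 and 10.73 (SD 0.41, 0.16 without replicate 4). Of 18 endothelial and sinus lining genes 12 had both replicates below the other 2, and so did 14 of 26 B cell and 10 of 26 natural killer and cytotoxic genes, against 21.1% of all genes. The same held for 6 of 10 MHC class II, 7 of 14 smooth muscle, 8 of 16 actin, 10 of 21 translation factor and 8 of 17 dendritic cell genes, but for 3 of 28 T cell genes. The list means moved little: that of the B cell genes lay 0.08, 0.05, -0.08 and -0.06 from the 4-mouse mean in replicates 1 to 4, and that of the endothelial genes 0.12, 0.07, -0.09 and -0.10. Quantile normalization gives every array the same distribution, so signal gained by some genes is lost by others, and the part of this in the lower values was not tested.

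Second probes gave a reading that the ranking had not used. Of the 200 most variable genes 105 had another probe for the same symbol, and in 52 the next brightest probe had a mean of at least 7.5. In 42 of these 52 the same mouse was highest by both probes, against 39.2% of the 1978 such genes overall. The median SD of the second probe was 0.271, against 0.0932 overall. Averaging all probes of a gene, dim ones included, lowered the SD by over 1.5 times in 84 of these 105 genes, and in 8 of the 12 with several probes among the 25 most variable. Beside Amy2a5 and Sptb these were Trim10 (SD 0.47), Ltf (0.51), Car2 (0.44), Dmtn (0.46), Mpo (0.34) and Ank1 (0.36). The second probe of Tfrc gave 9.41, 9.18, 10.61 and 11.09, close to the first. That of Mpo gave 8.28, 8.05, 8.94 and 9.08 and that of Birc5 7.76, 8.08, 8.89 and 8.98, lower in level but with replicates 3 and 4 again the upper pair.

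The other diets showed whether the same genes varied among mice that the ranking had not used. All 12 arrays had been normalized together, and which of them shared a BeadChip was not given. A chip shared between diets and a recurrence in other mice therefore cannot be told apart. Of the 200 genes most variable in control mice, 109 (54.5%) were among the 200 most variable within HFD-CO and 114 (57%) within HFD-ED, against 1.05% of all genes. When the control ranking left out replicate 4, the overlap was 78 in each diet. When it left out another mouse, the overlap was 104 to 108 within HFD-CO and 101 to 114 within HFD-ED. Dim genes seldom ranked high in control mice, where the 200 drew on 2.82% of the genes with a mean of at least 7.5. Their median SD was 0.429 in control mice, 0.381 within HFD-CO and 0.620 within HFD-ED, while over all genes it was 0.0391, 0.0403 and 0.0432. Across the 6991 genes with a mean of at least 7.5 the control SD correlated with the SD within HFD-CO at a Spearman rho of 0.354 and within HFD-ED at 0.359, across genes that are not independent.

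The groups recurred unevenly. Erythroid genes among the 200 most variable numbered 24 in control mice, 25 within HFD-CO and 33 within HFD-ED. Cell cycle genes numbered 17, 9 and 12, and neutrophil granule genes 10, 2 and 14. Heat shock genes numbered 6, 10 and 0, and pancreatic acinar genes 4, 24 and 2. Glucocorticoid and metallothionein genes numbered 4 in each of the 3 diets. Trim10 had SDs of 1.03 in control mice, 1.05 within HFD-CO and 1.49 within HFD-ED, and Cela2a of 0.90, 3.63 and 1.04. Ighg1 had an SD of 0.92 in control mice and 0.80 within HFD-CO, and of 0.043 within HFD-ED. The last is close to the median of all genes within HFD-ED, 0.0432. Levels in that diet were not used, so a steady signal and one at the floor cannot be told apart. Ltf had SDs of 0.93, 0.58 and 1.18. With 4 mice a diet, no test of a difference in spread was made.

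**Figure D5:**
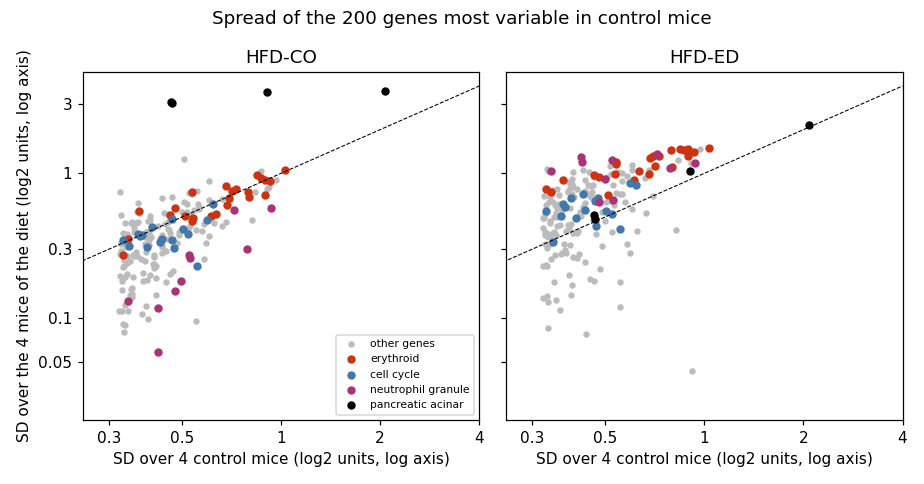
SD over the 4 control mice against the SD over the 4 mice of HFD-CO (left) and HFD-ED (right) for the 200 genes most variable in control mice, on log axes, with equal SDs on the dashed line. Erythroid genes lie near the line within HFD-CO and above it within HFD-ED, pancreatic acinar genes far above it within HFD-CO (Cela2a 3.63), and neutrophil granule genes below it there (Ltf 0.58).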

How the data were processed

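Spleen RNA of each mouse had been run on an Illumina MouseWG-6 v2.0 BeadChip. The authors read the beads in GenomeStudio and deposited log2-like signals from lumi 2.18.0 (variance-stabilizing transformation, then quantile normalization over the 12 arrays), which were used as they stand. Arrays have no read depth, and the number of mice limits the precision. Of 45281 probes 34885 carry 1 gene symbol, 18 several and 10378 none in the annotation used. Symbols were updated by Entrez ID, and the probe with the highest mean over the 4 control mice was kept for each of 19057 genes.

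Mean and SD (3 degrees of freedom) were computed per gene in Python 3.11.15 with pandas 2.3.3, and the code was tested on simulated data. No test between groups was made. Genes were read against 40 lists of cell types and functions written by hand and 2 more (histones, pigment cells) written after the values were seen. The genes, lists and alternatives were chosen with earlier results of these data known. Genes named were the 25 highest by mean and by SD, up to 3 by each measure per list, and others chosen after their values were seen. Alternatives left out each mouse, averaged all probes of a gene, dropped genes under 7.5, centred the arrays, or used another measure of spread. Promoters come from RefSeq on GRCm38.p6.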

Additional observations from a re-analysis of the deposited data

Results flagged for a closer look

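Among the genes named and the means of the lists, 171 in all, 14 had 1 mouse whose gap to the next took a larger share of the whole range than Dixon's 95% critical value for 4 samples allows. Chance alone gives about 1 in 20 in groups not picked for their values, but many of these genes were named for a high SD or after their values were seen, and genes and lists overlap, so the 14 cannot be set against that rate. The mouse set apart was replicate 4 in 6, replicate 1 in 5, replicate 2 in 2 and replicate 3 in 1.

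Replicate 4 was low in Dusp1, where the gap took a share of 0.944 of the range, Ddit4 (0.870), Per1 (0.857), Pdk4 (0.852) and Tsc22d3 (0.849), and in the mean of the monocyte and macrophage list (0.836). The last was -0.12 in replicate 4 and 0.02 to 0.05 in the others.

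Replicate 1 was high in Dct (0.971), Pf4 (0.914) and Tyrp1 (0.833), in the mean of the pigment cell list (0.923), which holds Dct and Tyrp1, and in that of the megakaryocyte and platelet list (0.830). Pf4 stood at 10.45 in replicate 1 and at 10.19 to 10.21 in the others.

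Replicate 2 was high in Fkbp5 (0.892), at 8.70 against 8.06 to 8.13, and in Clps (0.859). Replicate 3 was low in Bnip3l (0.842), at 11.35 against 11.69 to 11.75.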

How the results depend on the processing

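No paired analysis was possible because the results come from no test and the replicate numbers join no mice. Of 145 values recomputed under the alternatives, 131 stayed within 1.5 times a count or 1 SD of a list mean and 14 moved further. Some of the 131 could not move: the floor of 7.5 cannot change the 200 brightest genes, whose lowest mean was 12.28. With all probes of a gene averaged, 124 of the 200 brightest and 132 of the 200 most variable genes were shared. Genes with an SD of at least 0.5 then numbered 42 in place of 66. Cell cycle genes among the most variable numbered 10 in place of 17. Dim probes enter the average, and their part in these shifts was not tested. Restricting the analysis to genes with a mean of at least 7.5 raised the range of the list means over the mice to 0.7255 for neutrophil granule genes and 1.979 for pancreatic acinar genes, and left 2 pancreatic genes among the most variable. Leaving out each mouse in turn gave 37 to 87 genes with an SD of at least 0.5, and 1 to 6 heat shock, 1 to 6 glucocorticoid and metallothionein and 1 to 6 pancreatic acinar genes among the most variable. The range of the list mean then ran from 0.4678 to 0.7901 for erythroid, 0.3136 to 0.4721 for neutrophil granule, 0.1688 to 0.4716 for heat shock, 0.1253 to 0.5415 for glucocorticoid and metallothionein and 0.1432 to 0.5351 for pancreatic acinar genes. Erythroid genes numbered 20 to 25 when a mouse was left out and neutrophil granule genes 7 to 11. Leaving out replicate 4 kept 134 of the 200 most variable genes, and leaving out replicate 1, 2 or 3 kept 167, 170 or 176. The other measures of spread kept 185 to 189 of the 200, and centring the arrays kept 199.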
